A study of Homo sapiens with 21 samples.

Results

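Small nucleolar RNA host genes are long noncoding RNA (lncRNA) genes whose introns carry small nucleolar RNAs (snoRNAs). The 10 genes described here, GAS5, DANCR, SNHG1, SNHG3, SNHG7, SNHG8, SNHG12, SNHG15, SNHG16 and ZFAS1, were chosen by symbol, with earlier results of these data known. All 10 had a row in each of the 4 expression tables, which together list 20970 genes, and all 10 passed the filter on low values in every table that was tested. A library held between 142 reads (DANCR) and 10506 reads (SNHG3) on a member.

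As background, a host gene is transcribed and spliced, and the snoRNA is trimmed out of the excised intron and packed with a fixed set of proteins. Box C/D snoRNAs guide the 2′-O-methylation of ribosomal RNA and H/ACA snoRNAs guide its pseudouridylation, so both serve the making of ribosomes. Many host transcripts begin with a run of pyrimidines as ribosomal protein mRNAs do (a 5′ terminal oligopyrimidine tract, or TOP), and the spliced lncRNAs of several hosts are bound by ribosomes and degraded by nonsense-mediated decay (NMD), which ties their level to translation.

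The members fall into 2 classes by their guests. In the RefSeq annotation, 37 snoRNA genes lie within the 10 members, of which 25 are box C/D genes and 11 are H/ACA genes. GAS5, the growth arrest-specific transcript, holds 10 box C/D genes and 1 H/ACA gene, and SNHG1 holds 8 box C/D genes. SNHG16 and ZFAS1 hold 3 box C/D genes each, and SNHG12 holds 1 box C/D gene with 3 H/ACA genes. The other 5 members hold H/ACA genes only, with 2 each in SNHG3 and SNHG7 and 1 each in DANCR, SNHG8 and SNHG15.

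On GRCh37, which is the hg19 build of the files, all 10 are annotated as lncRNA genes. GAS5 lies at chr1:173827697-173838020 on the minus strand, SNHG12 at chr1:28905050-28909644 on the minus strand and SNHG3 at chr1:28832492-28837404 on the plus strand. DANCR lies at chr4:53578492-53589790 and SNHG8 at chr4:119199858-119206471, both on the plus strand. SNHG1 lies at chr11:62619450-62623425, SNHG7 at chr9:139615818-139622636 and SNHG15 at chr7:45022618-45026560, all on the minus strand. SNHG16 lies at chr17:74553809-74667067 and ZFAS1 at chr20:47894715-47916137, both on the plus strand. Exons of SNHG3 share 242 bases with RCC1 on the same strand, so reads there could be left out or go to either gene. SNHG8 shares 2487 exon bases with PRSS12 and SNHG7 shares 1482 with DIPK1B on the opposite strand. The library kit keeps the strand, but the strand setting of the counting is not given in the sources used here.

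RefSeq promoter windows, on GRCh38.p14, were found for 9 of the 10 members and not for SNHG15. Each of the 9 was searched at a single annotated start, so a match at another start of the same gene would be missed. They were searched for a TOP-like start, defined as a C from 5 bases before to 5 bases after the first annotated base that is followed by at least 4 bases each of C or T. Such a start was present in 6 of 9 members (66.7%), in 21.1% of all 35116 promoters, in 6 of 16 other snoRNA host lncRNAs (37.5%) and in 17 of 25 protein-coding snoRNA hosts of the translation machinery (68.0%). The windows below run from 10 bases before to 20 bases from the annotated start, 5′ to 3′ along the gene, with the pyrimidine run in capitals. The first 6 are shown because they hold the run, and SNHG3 is shown as a member without one.
DANCR, chr4:52712384-52712413, plus strand: tgcgcgccccgCCCTTgcccagagtcttcc
SNHG7, chr9:136728165-136728194, minus strand: ccttctcgtCCTCTgcgtgcgccggaggct
SNHG8, chr4:118278752-118278781, plus strand: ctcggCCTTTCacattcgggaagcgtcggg
SNHG12, chr1:28581854-28581883, minus strand: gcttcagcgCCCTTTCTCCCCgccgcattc
SNHG16, chr17:76557754-76557783, plus strand: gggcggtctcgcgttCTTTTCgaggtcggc
ZFAS1, chr20:49278632-49278661, plus strand: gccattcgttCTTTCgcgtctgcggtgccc
SNHG3, chr1:28505933-28505962, plus strand: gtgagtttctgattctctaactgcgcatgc

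The same promoters, taken from 250 bases before to 50 bases after the start, were searched on both strands for ACGTG or GCGTG, the core letters of a hypoxia response element. These letters occurred in 8 of 9 members, all but GAS5 at the start searched, and in 48.4% of all promoters. CACGTG, the E-box letters, which contain ACGTG, occurred in SNHG7 among the 9 members and in 7.26% of all promoters. A match is a description of the letters and not a binding site.

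RNA-seq was analysed from FADU, a head and neck cancer cell line, and BFTC909, a renal pelvis transitional cancer cell line. In each line, cells with scrambled siRNA (Scr-si) were kept at 18% O2 (normoxia) or 1% O2 (hypoxia) for 18 h, and cells with METTL4 siRNA (METTL4-si) were kept at 1% O2. METTL4 is a methyltransferase that the study examined as a writer of 6mA in nuclear DNA. FADU cells at 18% O2 with a control, with METTL4 overexpression (METTL4-OE) or with overexpression of the lncRNA RP11-390F4.3 (RP11-390F4.3-OE) formed another table, again with 2 libraries per group, and the RP11-390F4.3-OE columns were assigned by elimination because their name differs from the labels. The last table held 1 CRISPR control library and 1 library from each of 2 clones with a mutated METTL4 catalytic motif (METTL4-DPPW-mut), all FADU at 1% O2. The study asked how hypoxia and METTL4 shape expression in tumour cells, and the question here was whether the host genes moved together.

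Library quality differed in ways that touch the results. The 18 replicated libraries held between 19.04 M and 25.4 M reads on genes. METTL4 was 26.6 and 25.3 in the Scr-si hypoxia libraries of FADU and 24.2 and 27.1 in those labelled METTL4-si, so the transcript was not lower there (log2 fold change -0.02, adjusted p = 0.90). In BFTC909 it was 19.0 and 15.6 against 14.4 and 12.2 (log2 fold change -0.36, adjusted p = 0.0717). CA9, a carbonic anhydrase induced by hypoxia, was 31.0 and 37.8 in FADU Scr-si hypoxia and 1.87 and 2.22 in the METTL4-si libraries. Between the FADU METTL4-si libraries and normoxia CA9 was not called by edgeR or with median-centred libraries. DDIT4, also induced by hypoxia, was lower there than in normoxia (log2 fold change -0.45, adjusted p = 0.00569 by limma), while in BFTC909 it was higher (0.99). So neither gene was called higher than normoxia in the FADU libraries labelled METTL4-si at 1% O2, and the reason was not tested. In 3 libraries cell type markers stood apart from the other libraries of the same line. Of 7 luminal breast markers, 4 had a row in the FADU knockdown table (ESR1, PGR, TFF1 and GATA3), and their summed value was 87.0 in normoxia replicate 1, 441 in METTL4-si replicate 1 and 5.27 to 10.6 in the other 4 libraries. Of 4 fibroblast markers, 2 had a row there (COL1A1 and COL3A1), and their summed value was 25.6, 116 and 4.40 to 5.87 in the same order. In the BFTC909 table GATA3 alone of this list had a row, a gene that urothelial cells also express, and it was 128 in METTL4-si replicate 2 and 0.573 to 0.964 in the other 5 libraries. The summed value of the 4 of 8 epithelial markers with a row in BFTC909 (EPCAM, KRT8, KRT18 and TP63) was 1122 in BFTC909 METTL4-si replicate 2 and 21.5 to 84.7 in the other BFTC909 libraries. These 3 libraries are called the marker-high libraries, and the counts of members called are given with and without them. Without them FADU normoxia and both METTL4-si groups hold 1 library each, which is assumed to vary like the remaining groups. In FADU the spread then comes from the 2 Scr-si hypoxia libraries alone, with 1 residual degree of freedom, so those counts are weak evidence. The share of all genes called without the marker-high libraries is not given here, so those counts have no background.

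Values are read counts scaled to a common library size (TMM-normalized CPM), and log2 fold changes are of value + 1. A gene was called changed at 1.3-fold or more with a Benjamini-Hochberg adjusted p under 0.05 over all tested genes, by limma. Each group had 2 libraries and nothing states that they came from separate cultures, so the values of both are given and p-values measure the spread between these libraries only. Where groups are said not to overlap, this describes the 2 libraries of each and is no test. The share of all genes whose groups did not overlap is not given here. In bulk RNA, fewer cells with a transcript and less of it per cell cannot be told apart.

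**Figure D1:**
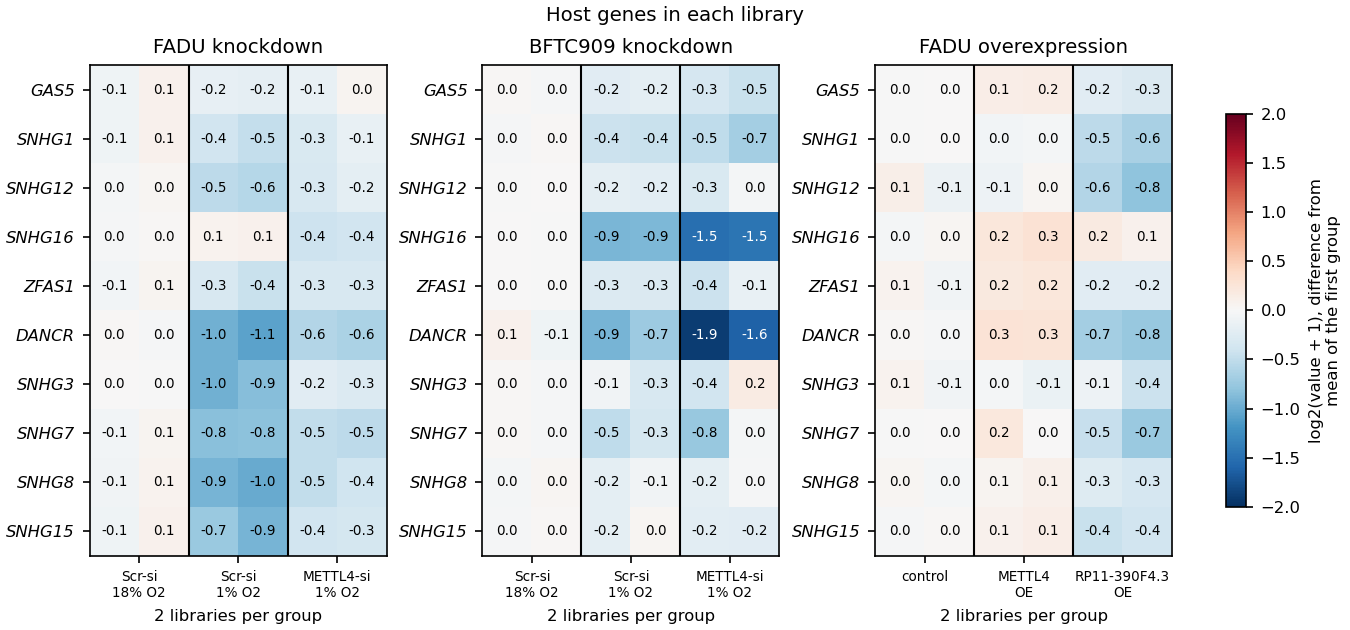
Each cell is log2(value + 1) of a host gene (row) in a library (column), minus the mean of the first group of that table. In FADU the Scr-si libraries at 1% O2 were below the normoxia mean for 9 of 10 host genes, all but SNHG16, and in BFTC909 SNHG16 and DANCR had the lowest values in the METTL4-si libraries.

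Under hypoxia the host genes fell together in FADU cells. Of the 10 members, 8 fell and 0 rose, against 9.65% of all 16324 tested genes called lower and 9.73% called higher. The median log2 fold change was -0.69 over the members and -0.03 over all genes. The median member was 0.63 and 0.70 log2 units below the normoxia mean in the 2 hypoxia libraries.

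The members that host H/ACA snoRNAs only had the larger falls. DANCR, an lncRNA named for its part in blocking differentiation, measured 38.7 and 37.3 in normoxia and 19.0 and 17.5 in hypoxia. Its hypoxia libraries lay at about the same level and far below both normoxia libraries. The fall was to 0.480-fold (log2 fold change -1.02, SE 0.084, adjusted p = 0.0008). SNHG8 measured 54.8 and 60.9 in normoxia and 30.0 and 28.4 in hypoxia (0.504-fold, log2 fold change -0.96, adjusted p = 0.000971). SNHG3, host of the U17 snoRNAs SNORA73A and SNORA73B that act in ribosomal RNA cleavage, measured 437 and 428 in normoxia and 222 and 238 in hypoxia. Neither group came near the other, and the fall was to 0.532-fold (log2 fold change -0.91, SE 0.066, adjusted p = 0.000557). SNHG7 measured 100.2 and 108 against 57.6 and 58.6, and SNHG15 measured 49.8 and 55.7 against 31.2 and 27.2. Both fell by 0.83 on the log2 scale, with adjusted p-values of 0.0008 and 0.00235.

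The members with box C/D guests moved less. SNHG12 measured 65.2 and 68.8 in normoxia and 46.5 and 44.7 in hypoxia (log2 fold change -0.54, adjusted p = 0.00422). SNHG1 measured 145 and 163 against 118 and 109.6 (log2 fold change -0.43, adjusted p = 0.0177), and ZFAS1 measured 88.9 and 95.9 against 73.9 and 67.7 (log2 fold change -0.38, adjusted p = 0.0143). In all 3 genes the groups did not overlap, but the gaps were narrow beside those of DANCR or SNHG3. The groups of GAS5 and SNHG16 did not overlap either, though these genes were not called. GAS5, an lncRNA that accumulates in growth arrest, measured 244 and 275 in normoxia and 231 and 228 in hypoxia (log2 fold change -0.17, 95% interval -0.39 to 0.05, adjusted p = 0.211). SNHG16 measured 169 and 176 in normoxia and 180.5 and 183 in hypoxia (log2 fold change 0.07, 95% interval -0.07 to 0.22, adjusted p = 0.406), and neither gene passed the test.

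Split by their guests, the 5 members with H/ACA genes only had log2 fold changes from -1.02 to -0.83, and the 5 members with box C/D genes had log2 fold changes from -0.54 to 0.07. The ranges did not overlap. This split was made with the values known and was not tested, and it did not appear in BFTC909, where the ranges were -0.83 to -0.08 and -0.91 to -0.20. Calls of the smaller falls were lost when 1 library was left out. The share of all genes called without that library is not given here, so these counts have no background. Without FADU normoxia replicate 2, or without FADU Scr-si hypoxia replicate 2, 5 members were called lower, and SNHG1, SNHG12 and ZFAS1 were not called. Scaling mattered too. With median-centred libraries 6 members were called lower, without SNHG1 (adjusted p = 0.0676) and ZFAS1 (0.0533), and ZFAS1 also fell short of the fold with edgeR and with a pseudocount of 5. Of all 16324 tested genes 1167 were called lower with median-centring, against 1575 without it. Without the marker-high libraries 8 members were called lower.

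**Figure D2:**
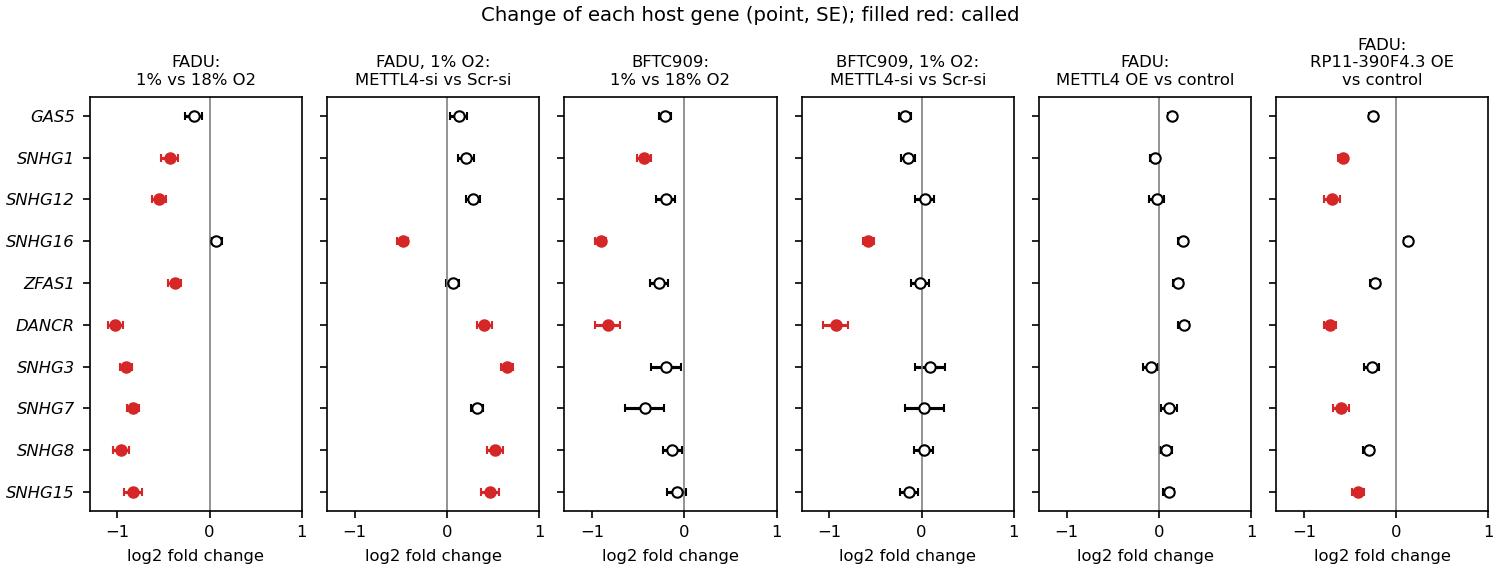
Points are log2 fold changes of each host gene with the standard error from limma, for 6 comparisons of 2 libraries against 2, and filled red points passed 1.3-fold and an adjusted p under 0.05. In FADU hypoxia 8 points are filled, all to the left of 0, while after METTL4-OE none is filled.

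In the FADU libraries labelled METTL4-si, several host genes stood between the hypoxic and normoxic controls. Compared with Scr-si at 1% O2, 4 members rose, SNHG3, SNHG8, SNHG15 and DANCR, and SNHG16 fell, against 12.5% of all genes called higher and 15.3% called lower. The median log2 fold change was 0.31 over the members and 0.02 over all genes. The comparison shares its Scr-si hypoxia libraries with the hypoxia comparison, so the 2 sets of fold changes are not independent.

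SNHG3 measured 368 and 356 in the METTL4-si libraries against 222 and 238 in Scr-si hypoxia, with 437 and 428 in normoxia. Every METTL4-si library lay above every hypoxia control and below every normoxia library. The rise was 1.57-fold over the hypoxia control (log2 fold change 0.65, SE 0.066, adjusted p = 0.00094). SNHG8 measured 40.9 and 43.8 (1.45-fold, adjusted p = 0.00491), SNHG15 measured 40.0 and 41.2 (1.39-fold, adjusted p = 0.0112) and DANCR measured 24.9 and 24.1 (1.34-fold, adjusted p = 0.0113). These also lay between their 2 control groups without overlap. SNHG7, at 74.1 and 71.9, and SNHG12, at 53.6 and 58.2, had adjusted p-values of 0.0121 and 0.0262 but fold changes of 1.26 and 1.23, under the fold required. SNHG1, GAS5 and ZFAS1 had log2 fold changes of 0.21, 0.13 and 0.06 with adjusted p-values of 0.124, 0.319 and 0.56.

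SNHG16 went the other way. It measured 129 and 132 in the METTL4-si libraries, below the 180.5 and 183 of Scr-si hypoxia and the 169 and 176 of normoxia. The fall from the hypoxia control was to 0.716-fold (log2 fold change -0.48, SE 0.060, adjusted p = 0.00186).

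Compared with normoxia, the METTL4-si libraries at 1% O2 held 4 members that fell and 0 that rose, against 13.5% of all genes called lower and 8.13% called higher. These were DANCR (log2 fold change -0.61, adjusted p = 0.00435), SNHG7 (-0.51, adjusted p = 0.00421), SNHG8 (-0.44, adjusted p = 0.0125) and SNHG16 (-0.41, adjusted p = 0.00542). The other 6 members had log2 fold changes from -0.37 in SNHG15 to -0.05 in GAS5. Several of these calls were lost when 1 library was left out. The share of all genes called without that library is not given here, so these counts have no background. Without FADU Scr-si hypoxia replicate 2, 1 member rose and 1 fell against the hypoxia control, since DANCR, SNHG8 and SNHG15 lost their calls. Without FADU normoxia replicate 2, 0 members passed the test against normoxia. With that library left out, the marker-high replicate 1 was the only normoxia library, and DANCR had a log2 fold change of -0.64 against normoxia. The DANCR call against the hypoxia control was also lost with median-centred libraries (log2 fold change 0.36) and with a pseudocount of 5 (0.34), both under the fold. Without the marker-high libraries, 4 members rose and 1 fell against the hypoxia control, and 5 fell in a comparison of 1 METTL4-si with 1 normoxia library.

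**Figure D3:**
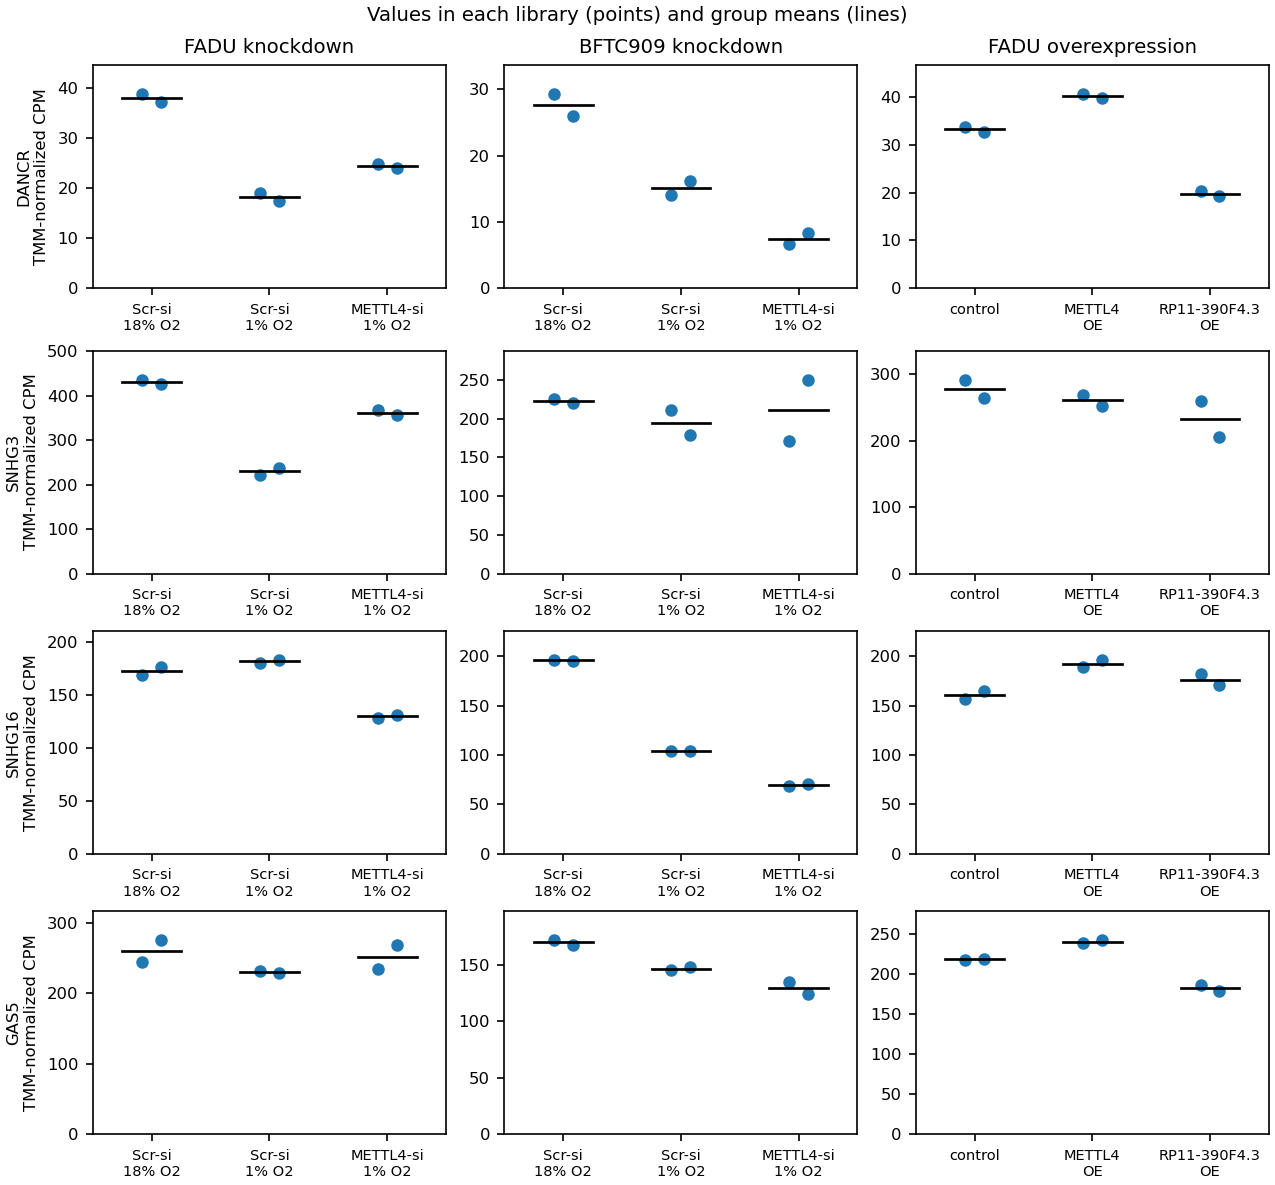
Points are the values (TMM-normalized CPM, linear axes from 0) of DANCR, SNHG3, SNHG16 and GAS5 in each library, and lines are group means of 2 libraries. DANCR in the METTL4-si libraries lay above the hypoxia control in FADU (24.9 and 24.1 against 19.0 and 17.5) and below it in BFTC909 (6.66 and 8.31 against 14.0 and 16.2).

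In BFTC909 cells fewer host genes changed. Under hypoxia 3 members fell, SNHG16, DANCR and SNHG1, and 0 rose, against 18.3% of all 14869 tested genes called lower and 17.9% called higher. With 3 of 10, the share of members called was not far from the share of all genes called lower. With median-centred libraries 2 fell, since SNHG1 was under the fold (log2 fold change -0.37). Of all genes 2107 were called lower with median-centring, against 2715 without it. The median log2 fold change was -0.24 over the members and -0.02 over all genes, and all 10 log2 fold changes were below 0. The tables of the 2 lines were normalized separately, so levels are compared only within a line.

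SNHG16 measured 196 and 195 in normoxia and 104 and 104 in hypoxia. Its libraries agreed closely within each group, and the fall was to 0.531-fold (log2 fold change -0.91, SE 0.060, adjusted p = 5.37e-05). DANCR measured 29.3 and 26.0 against 14.0 and 16.2 (0.548-fold, log2 fold change -0.83, adjusted p = 0.00229), and SNHG1 measured 137 and 142 against 103 and 102 (0.736-fold, adjusted p = 0.00292). SNHG7, at 29.3 and 28.1 against 19.9 and 22.4, did not pass the test (log2 fold change -0.43, adjusted p = 0.137), but it did without the marker-high BFTC909 library (adjusted p = 0.000171). The spread for this gene in the full fit included METTL4-si libraries of 16.5 and 28.0. GAS5, at 0.863-fold, had an adjusted p of 0.0358 but not the fold and ZFAS1 an adjusted p of 0.0573. SNHG3, SNHG8, SNHG12 and SNHG15 had log2 fold changes from -0.20 to -0.08 with adjusted p-values of 0.141 or more.

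In the BFTC909 METTL4-si libraries 2 members fell further and 0 rose, against 11.7% of all genes called lower and 13.2% called higher in the comparison with Scr-si hypoxia. DANCR measured 6.66 and 8.31 against 14.0 and 16.2, less than any other BFTC909 library, and fell to 0.495-fold (log2 fold change -0.93, SE 0.13, adjusted p = 0.00235). SNHG16 measured 68.4 and 70.5 against 104 and 104 and fell to 0.667-fold (log2 fold change -0.58, SE 0.060, adjusted p = 0.000566). The median over the members was -0.07 and over all genes 0.01. Replicate 2, the marker-high library, was higher than replicate 1 for SNHG3 (250.4 against 171), SNHG7 (28.0 against 16.5) and ZFAS1 (50.9 against 41.6). Its part in these values was not tested beyond leaving it out. Without it SNHG3 and SNHG7 had log2 fold changes of -0.18 and -0.33 in place of 0.09 and 0.03, and the same 2 members, DANCR and SNHG16, passed the test.

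Compared with normoxia, the BFTC909 METTL4-si libraries held 4 members that fell and 0 that rose, against 23.2% of all genes called lower and 24.4% called higher. DANCR stood at 0.271-fold (log2 fold change -1.76, adjusted p = 6.58e-05) and SNHG16 at 0.355-fold (-1.48, adjusted p = 8.26e-06), followed by SNHG1 at 0.664-fold and GAS5 at 0.762-fold. Without the marker-high library 6 members were called lower. In BFTC909 SNHG16 and DANCR were highest in normoxia, lower in Scr-si hypoxia and lowest in METTL4-si, and no libraries of neighbouring groups overlapped. In FADU the order for SNHG16 was hypoxia, normoxia and then METTL4-si, and the test of the first 2 against each other was not passed.

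After METTL4-OE in FADU at 18% O2 the host genes showed small differences and 0 of 10 were called in either direction, against 8.00% of all 15644 tested genes called higher and 10.5% called lower. METTL4 itself was 35.4 and 32.7 in the control and 158 and 139 after overexpression. At an unadjusted p under 0.05 with no fold required 4 members passed, as they did with the adjusted p, and edgeR on whole reads called 0. DANCR measured 33.8 and 32.7 in the control and 40.6 and 39.8 after METTL4-OE (1.21-fold, 95% interval of the log2 fold change 0.13 to 0.41, adjusted p = 0.00497). SNHG16 measured 157 and 165 against 189 and 196 (log2 fold change 0.26, adjusted p = 0.000828). ZFAS1 was 1.16-fold and GAS5 1.10-fold of the control, with adjusted p-values of 0.00814 and 0.0206. The median over the members was 0.11 and over all genes 0.01.

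After RP11-390F4.3-OE 5 members fell and 0 rose against the control, against 12.5% of all genes called lower and 16.5% called higher. RP11-390F4.3 itself could not be matched to an identifier and is not given. DANCR measured 20.4 and 19.3 against 33.8 and 32.7 (0.596-fold, log2 fold change -0.72, SE 0.065, adjusted p = 8.16e-07). SNHG12 measured 31.7 and 27.2 against 52.2 and 44.7 (0.608-fold, adjusted p = 1.55e-05), SNHG7 measured 48.4 and 39.8 against 66.3 and 67.6 (0.659-fold, adjusted p = 4.33e-05) and SNHG1 measured 85.6 and 78.2 against 122 and 124 (0.667-fold, adjusted p = 6.38e-07). In each the overexpression libraries lay below both controls. SNHG15 was the fifth, at 26.2 and 27.5 against 35.3 and 36.9 (0.744-fold, adjusted p = 9.58e-05), and its call was lost with a pseudocount of 5 (log2 fold change -0.37). SNHG8, GAS5, SNHG3 and ZFAS1 were at 0.808-fold, 0.838-fold, 0.836-fold and 0.852-fold with adjusted p-values between 0.000245 and 0.0161, short of the fold required. SNHG16 measured 182 and 171 against 157 and 165 (1.09-fold, adjusted p = 0.0397), the only member above the control. The median over the members was -0.36 and over all genes 0.01.

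Set against METTL4-OE, the RP11-390F4.3-OE libraries held 7 members that fell and 0 that rose, with 13.3% of all genes called lower and 18.4% called higher. DANCR stood at 0.493-fold (log2 fold change -0.98, adjusted p = 3.46e-08), and SNHG7, SNHG12, SNHG1, SNHG15, ZFAS1 and GAS5 at 0.609-fold to 0.761-fold. SNHG8, at a log2 fold change of -0.38, was just under the fold on the scale of value + 1, and SNHG3 at 0.890-fold had an adjusted p of 0.0882. The order of DANCR levels in this table was METTL4-OE, control and RP11-390F4.3-OE, and the libraries of neighbouring groups did not overlap.

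The mutant clones had a single control library, so the differences have no replicate check and no test. Past 1.3-fold in the same direction in both clones, 2 members were higher and 1 was lower, against 8.94% of 15719 genes higher and 11.8% lower. DANCR measured 10.3 in the control, 17.6 in clone 1 and 18.7 in clone 2, with log2 ratios of 0.71 and 0.80. SNHG8 measured 14.3, 20.9 and 22.4, with log2 ratios of 0.52 and 0.62. SNHG3 was lower, at 165, 124 and 93.4, with log2 ratios of -0.41 and -0.81. SNHG15, at 17.9, 14.3 and 10.1, passed the fold in clone 2 only, as did SNHG1 at 60.7, 51.6 and 45.1. The other 5 members had ratios between -0.35 and 0.29, and GAS5 and SNHG12 differed in direction between the clones. The median over the members was 0.09 in clone 1 and -0.20 in clone 2, and the medians over all genes were 0.00 and -0.01. The METTL4 transcript itself measured 12.5 in the control library, 15.9 in clone 1 and 10.6 in clone 2. Between 40.9% and 43.0% of the reads in this table lay on no single gene, and levels are not comparable with the other tables.

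Few of the guest snoRNAs had values of their own. Of the snoRNA genes within members, 8 had a row in the annotation and a table, and 7, 6 and 7 passed the filter in the FADU, BFTC909 and overexpression tables. Their reads may come from the snoRNA or from the unspliced or exonic host sequence, and these were not told apart. SNORA73B, in an intron of SNHG3 at chr1:28835071-28835274 and nearly identical to SNORA73A of the same host, was the one with values above 10. It measured 126 and 198 in FADU normoxia, 70.5 and 87.5 in Scr-si hypoxia and 119 and 130.0 in the METTL4-si libraries, so hypoxia was lowest, as for its host. The log2 fold change under hypoxia was -0.998 (SE 0.21, adjusted p = 0.0176). In the mutant table it measured 80.4, 44.9 and 33.5, lower in both clones. In BFTC909 its libraries scattered, at 70.4 and 57.9, 89.9 and 44.7, and 74.3 and 125.

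Of 7 guest snoRNAs tested in FADU hypoxia, 4 fell and 0 rose, against 9.65% of all genes called lower. These were SNORA73B, SNORD99 of SNHG12 (log2 fold change -0.87), SNORA26 of DANCR (-0.67) and SNORD12 of ZFAS1 (-0.61). With median-centred libraries 1 fell, against 1167 of all 16324 genes. Without the marker-high libraries, where normoxia is 1 library, the median log2 fold change of the guests was -0.83. After RP11-390F4.3-OE, with 7 guests tested and 12.5% of all genes called lower, the 3 guests of ZFAS1 fell. SNORD12 fell by 0.61, SNORD12C by 0.60 and SNORD12B by 0.55 on the log2 scale, while ZFAS1 itself had a log2 fold change of -0.23. SNORD12 and SNORD12B share 90 and 88 bases with exons of ZFAS1, and all 3 lie in 1 host, so they are not separate results. In BFTC909 hypoxia 0 of 6 were called by limma or by edgeR on whole reads, and 0 had an unadjusted p under 0.05. In FADU hypoxia edgeR called 3 of the 7 lower.

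The other host genes did not all go with the 10 members. The counts that follow include the marker-high libraries, and counts without them carry the limits stated above. Of all genes, 9.65% were called lower and 9.73% higher in FADU hypoxia, and 18.3% and 17.9% in BFTC909 hypoxia. In METTL4-si against the hypoxia control these shares were 15.3% and 12.5% in FADU and 11.7% and 13.2% in BFTC909. After RP11-390F4.3-OE they were 12.5% and 16.5%, and after METTL4-OE 10.5% and 8.00%. Of 15 other snoRNA host lncRNAs tested in FADU hypoxia, 5 fell and 0 rose (median log2 fold change -0.29), led by SNHG9 (-1.20) and SNHG25 (-0.90). In the FADU METTL4-si libraries 4 rose and 3 fell (median 0.21). SNHG25 rose by 1.02 and SNHG9 by 0.70 on the log2 scale, while SNHG29 fell by 0.53 and SNHG5 fell by 0.52. In BFTC909 hypoxia 6 of 14 fell, with SNHG26 at -0.90, and SNHG18 rose by 0.83. After RP11-390F4.3-OE 5 of 14 fell, with SNHG26 at -0.91, and 0 rose. Without the marker-high libraries, 6 fell in FADU hypoxia, and 5 rose and 2 fell in the FADU METTL4-si library.

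Protein-coding hosts, mostly ribosomal protein and translation factor genes with a snoRNA in an intron, showed another pattern. Of 29 in FADU hypoxia, 2 rose and 3 fell (median log2 fold change -0.06). TPT1 rose by 0.59 and RPSA, a small-subunit ribosomal protein, by 0.38 on the log2 scale, while EIF4A1, an RNA helicase of translation initiation, fell by 0.88 and RPL17 fell by 0.84. EIF4A1 and RPL17 share exons with read-through genes, so their values are uncertain. In the FADU METTL4-si libraries 20 of 29 fell and 2 rose (median -0.65), and EIF4A1 and RPL17 were the 2 that rose, both by 0.59. RPSA measured 1065 and 1131 in Scr-si hypoxia and 424 and 402 in the METTL4-si libraries (log2 fold change -1.41, adjusted p = 0.00015). RPS12 measured 415 and 442 against 175 and 159 (-1.36, adjusted p = 0.000252). Without the marker-high libraries 1 rose and 3 fell in FADU hypoxia, where RPSA lost its call, and 2 rose and 23 fell in METTL4-si. In the METTL4-si comparison the median of the 10 lncRNA hosts was above 0 and that of the protein-coding hosts below it.

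After RP11-390F4.3-OE the medians of the protein-coding and the 10 lncRNA hosts were again on opposite sides of 0. There 12 of 29 rose and 1 fell (median 0.32), and with median-centred libraries 8 rose and 2 fell. Of all 15644 genes 1997 were called higher and 2852 lower with median-centring. TPT1 measured 563 and 601 in the control and 881 and 879 after overexpression (log2 fold change 0.60, adjusted p = 2.38e-07), and RPS2 rose by 0.56. After METTL4-OE 1 of 29, RPL12, rose (0.44). In BFTC909 hypoxia 7 of 29 fell, led by HSPA8 (-1.04) and NCL (-0.82), the gene of nucleolin, against 18.3% of all genes called lower. The share of these hosts called was not far from the share of all genes. In the METTL4-si libraries of that line 9 of 29 fell relative to the hypoxia control, led by EEF1B2 (-0.71) and RPSA (-0.59), against 11.7% of all genes. With median-centred libraries 19 of 29 fell in the last comparison. Of all 14869 genes 2510 were then called lower, and the median over all genes was -0.09. Whether the lncRNA and protein-coding hosts differ was not tested.

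Some of the proteins that bind snoRNAs fell under hypoxia. Of 8 core snoRNP proteins, 4 fell in FADU (median log2 fold change -0.40) and 7 fell in BFTC909 (median -0.71), and 0 rose. NOP56, a box C/D core protein, measured 168 and 170.0 in FADU normoxia and 119 and 108 in hypoxia (log2 fold change -0.57), and in BFTC909 it measured 194 and 192 against 100.4 and 107 (-0.89). DKC1, the pseudouridine synthase dyskerin of H/ACA particles, fell by 0.91 in BFTC909 and GAR1, its partner, fell by 0.51 in FADU on the log2 scale. With median-centred libraries 2 of 8 in FADU and 7 of 8 in BFTC909 fell, and with edgeR 3 and 7. Of all genes 1167 of 16324 in FADU and 2107 of 14869 in BFTC909 were called lower with median-centring. In the METTL4-si libraries 3 of 8 fell in FADU, led by SNU13 (-0.51) and FBL (-0.50), the 2′-O-methyltransferase fibrillarin, and 1, FBL (-0.41), fell in BFTC909. After METTL4-OE 3 of 8 rose, with FBL at 0.44 and DKC1 at 0.41. After RP11-390F4.3-OE FBL and SNU13 rose by 0.42 and 0.39, and NOP56 and NOP58 fell by 0.45 and 0.42. With median-centred libraries 2 fell and 0 rose there, with 2852 of all 15644 genes called lower and 1997 higher. Without the marker-high libraries 4 of 8 fell in the FADU METTL4-si library and 2 of 8 in that of BFTC909.

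Of 9 snoRNP assembly factors, 3 fell in FADU hypoxia and 7 in BFTC909 hypoxia, and 0 rose. NUFIP1, an assembly scaffold for box C/D particles, fell by 0.60 in FADU and 0.99 in BFTC909 on the log2 scale, and NOLC1, a chaperone of snoRNPs, fell by 0.89 in BFTC909. In the METTL4-si libraries against the hypoxia control 0 of 9 were called in either line by limma, although 3 in FADU and 5 in BFTC909 had an unadjusted p under 0.05, and edgeR on whole reads called 0 in FADU and 1 in BFTC909. Without the marker-high library limma called 1 higher (NUFIP1) and 1 lower (RUVBL2, named after its values were seen) in BFTC909.

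Few NMD factors were called in most comparisons. Of 10 tested, 0 were called in FADU hypoxia by limma or edgeR (4 had an unadjusted p under 0.05), while 1 fell without the marker-high libraries, and 1 rose and 1 fell in BFTC909 hypoxia, UPF3A (0.39) and UPF1 (-0.42). In the FADU METTL4-si libraries 1 rose, SMG9, by 0.54 on the log2 scale, but without the marker-high libraries SMG9 was not called. In BFTC909 METTL4-si against normoxia 3 fell, against 23.2% of all genes called lower. Without the marker-high library the median log2 fold change there was -0.41. Between RP11-390F4.3-OE and METTL4-OE all 10 log2 fold changes were below 0 with an unadjusted p under 0.05. Of these 3 were called lower (median -0.32), against 13.3% of all genes. SMG6 fell by 0.39 on the log2 scale after RP11-390F4.3-OE. Of 12 regulators of TOP mRNAs and mTORC1, 3 rose and 0 fell in FADU hypoxia and 1 rose and 2 fell in BFTC909 hypoxia. DDIT4, an inhibitor of mTORC1 induced by hypoxia, measured 141 and 143 in FADU normoxia, 492 and 533 in Scr-si hypoxia and 106 and 102 in the METTL4-si libraries. It rose by 1.85 in hypoxia and fell by 2.29 in METTL4-si on the log2 scale, rose by 1.76 and fell by 0.76 in the same comparisons of BFTC909, and rose by 1.198 after METTL4-OE and by 2.28 after RP11-390F4.3-OE.

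The genes whose pattern was most like the members were found by correlating each gene with the average profile of the 10 members over the 6 libraries of each replicated table and averaging the 3 values of r. Among 9672 genes with a mean value of at least 5 in each table, the highest that are not members were protein-coding. They included DHX37, an RNA helicase of small ribosomal subunit assembly (mean r 0.982), THOC5 of the THO mRNA export complex (0.979), METTL1, a tRNA methyltransferase (0.977), and HASPIN, a histone H3 kinase (0.977). The members themselves ranged widely against this profile, which includes them. DANCR had a mean r of 0.980, the other members but SNHG3 and SNHG16 had at least 0.867, SNHG3 had 0.702 and SNHG16 had 0.377, with an r of -0.05 in FADU and 0.970 in BFTC909. The libraries of a group are not independent conditions, so these values describe likeness only. DHX37 measured 88.4 and 88.9 in FADU normoxia, 58.2 and 51.7 in Scr-si hypoxia and 68.6 and 65.5 in METTL4-si. In BFTC909 it measured 79.8 and 80.7, 41.9 and 45.5, and 35.5 and 44.4 in the same order. METTL1 measured 16.6 and 17.1, 8.22 and 6.89, and 12.6 and 12.4 in the FADU groups.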

How the data were processed

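Total RNA depleted of ribosomal RNA was sequenced in 21 libraries of FADU and BFTC909 cells. Per the labels and the study's methods, the authors used Trim Galore for trimming, HISAT2 for alignment to the hg19 genome and HTSeq for gene counts, and deposited TMM-normalized CPM from edgeR as a signal per gene (versions are not given in the sources used here). Whole reads were recovered for 100% of values in the 3 replicated tables, within 0.05 reads, at 19.04 M to 25.4 M reads on genes per library. The mutant table lists genes with at least 10 reads in every library. Another 4 tables hold the authors' fold changes and p-values and were not used.

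Differences were tested with limma 3.58.1 (R 4.3.3, trend) on log2(value + 1), in one fit per table, over genes at 1 or more in at least 2 libraries. A gene was called at 1.3-fold and an adjusted p under 0.05. The methods' own criterion, an unadjusted p, was an alternative, as were edgeR 4.0.16 on whole reads, other pseudocounts (0.1 and 5), filters, median-centring, a replicate block and leaving libraries out. The procedure was tested on simulated data. The members and the gene lists were chosen with earlier results of these data known. All members are named, and from each list at most 2 called genes in each direction with the largest change, besides the snoRNA genes within members and the 5 genes most like the members, of which 1 is not reported here. Tables were normalized separately, so no test crosses them.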

Additional observations from a re-analysis of the deposited data

Results flagged for a closer look

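In 5 results the 2 lines moved in opposite directions, with both libraries of a line on the same side of their control mean. The share of all genes that meet this rule is not given here, so the count has no background and is not read as a trait of the members. The difference between the lines was not tested, because their tables were normalized separately. SNHG16 under hypoxia had a log2 fold change of 0.074 in FADU and -0.91 in BFTC909, and of these the second was called. In the METTL4-si libraries against Scr-si hypoxia, DANCR had log2 fold changes of 0.41 in FADU and -0.93 in BFTC909, and both were called. SNHG15 had 0.47 in FADU, which was called, and -0.13 in BFTC909, which was not. GAS5 had 0.13 and -0.18, and SNHG1 had 0.21 and -0.15, and none of these 4 values was called. The METTL4 transcript was about level between METTL4-si and Scr-si hypoxia in FADU (log2 fold change -0.02, adjusted p = 0.90 by limma), and 1 METTL4-si library of each line was marker-high. The part of either in these differences was not tested, but without the marker-high libraries, with 1 METTL4-si library left in each line, the DANCR values were 0.38 in FADU and -1.07 in BFTC909.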

How the results depend on the processing

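Over 9 comparisons and 10 members, 23 of 1480 values under alternatives changed direction, in 10 of 90 results, and none of the 10 was called. Leaving out 1 library gave 5 to 8 members called in FADU hypoxia (8 in the full fit), 2 to 5 in FADU METTL4-si against Scr-si hypoxia (5), 0 to 5 against normoxia (4), 3 to 4 in BFTC909 hypoxia (3), 2 to 3 in BFTC909 METTL4-si against Scr-si hypoxia (2), 3 to 6 against normoxia (4), 0 after METTL4-OE (0), 5 to 6 after RP11-390F4.3-OE (5) and 6 to 8 between the overexpressions (7). The cause of these shifts was not tested. The share of all genes called with 1 library left out is not given here, so the shifts are not read as a trait of the members. With no minimum fold, 8 members were called in FADU METTL4-si against normoxia, 4 after METTL4-OE and 10 after RP11-390F4.3-OE, since members with small changes passed the adjusted p. The share of all genes called without a fold is not given here, so these counts have no background and are not read as a trait of the members.

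In BFTC909 METTL4-si against Scr-si hypoxia, median-centring gave log2 fold changes of -0.0061 for SNHG3, -0.066 for SNHG7, -0.074 for SNHG8 and -0.064 for SNHG12, and leaving out the marker-high library gave -0.18, -0.33, -0.058 and -0.10 for the same genes. Leaving out 1 library gave -0.18 to 0.37 for SNHG3, -0.33 to 0.40 for SNHG7, -0.058 to 0.10 for SNHG8, -0.10 to 0.17 for SNHG12 and -0.16 to 0.13 for ZFAS1 there. It gave -0.0011 to 0.12 for ZFAS1 in FADU METTL4-si against Scr-si hypoxia, -0.14 to 0.050 for GAS5 in FADU METTL4-si against normoxia, -0.20 to 0.040 for SNHG15 in BFTC909 hypoxia, -0.38 to 0.17 for SNHG3 in BFTC909 METTL4-si against normoxia and -0.14 to 0.085 for SNHG12 after METTL4-OE. The cause was not tested.

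With the replicate number as a block, which could be fitted in 7 comparisons, the counts of members called were 8, 5, 4, 3, 2, 4 and 0, equal to those without it. Libraries with the same number deviated together in FADU normoxia and METTL4-si (r = 0.648 across genes) and hardly in the other pairs of numbered groups (-0.065 to 0.154). Replicate 1 was marker-high in both of the FADU groups with the high r. These values do not settle whether the numbers pair the libraries. Depth limits the guest snoRNAs, of which all but SNORA73B were under 10 in every library, and the mutant clones have no replicate control.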
